A study of Arabidopsis thaliana with 15 samples.

Results

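Arabidopsis thaliana carries large families of glutathione transferase genes, and 41 of the 32548 genes in the deposited expression table were taken here as the tau and phi classes. They were chosen by name, as the loci of GSTU1 to GSTU28 (28 tau genes) and GSTF2 to GSTF14 (13 phi genes), and all 41 were in the table. RNA had been sequenced from whole seedlings, 11 days old, of the Col-0 ecotype in 15 libraries, 3 in each of 5 groups. The wild type was sampled as 2 groups, named Col-0_1 and Col-0_2. The group wrky-qm carried homozygous mutations in 5 genes for WRKY transcription factors of group IId, namely WRKY39, WRKY21, WRKY17, WRKY11 and WRKY7. The group wrky-qm_15_hz carried the same 5 homozygous mutations and was also labelled heterozygous for a mutation of WRKY15. The group obe1-2 was homozygous for mutations of OBE1 and OBE2, which encode proteins with a PHD finger. The labels give no allele names, record no treatment, and do not say whether the libraries of a group came from separate plates or pools of seedlings, so p-values here cover spread among libraries that may be technical replicates.

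Glutathione transferases join the tripeptide glutathione to reactive or foreign molecules, or bind such molecules without a reaction. The conjugates are carried into the vacuole by ABC transporters. The tau class is specific to plants and the phi class is found mostly in them; both hold the enzymes that detoxify herbicides, and some members act in the synthesis of defence compounds such as camalexin and glucosinolates or in the transport of anthocyanins. Many members are known to be induced by pathogens, oxidants and salicylic acid, in part through TGA transcription factors that bind the motif TGACG. WRKY factors bind the W-box, here TTGACC or TTGACT.

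Values are normalised reads per gene as the authors deposited them, and fold changes are on the log2(value + 1) scale relative to the averaged wild-type sets, ± SE. On this scale the change of genes with low values is understated. A gene rose or fell in a mutant where limma, fitted to all genes and all 15 libraries, placed it above both wild-type sets, or below both, at an adjusted p under 0.05. Library sums ran from 44049333 to 49934976 normalised reads and differed by group. They were 44049333 to 44633457 in Col-0_1, 44355906 to 44563158 in Col-0_2 and 45887436 to 46402162 in wrky-qm. In obe1-2 they were 48769529 to 49323667 and in wrky-qm_15_hz 49382960 to 49934976. The main fit did not rescale the values, which matters most for small fold changes. OBE1 stood at 11.1 ± 4.66 (SD, n = 3) in obe1-2, compared with 2194 ± 161 in Col-0_1 libraries and 2546 ± 109 in Col-0_2 libraries. WRKY17 was at 184 ± 19.4 in wrky-qm and 411 ± 56.5 in wrky-qm_15_hz, below 1028 ± 94.9 in Col-0_1 and 849 ± 33.3 in Col-0_2. WRKY7 was higher in wrky-qm (1844 ± 81) than in Col-0_1 (952 ± 67.7). WRKY11 in wrky-qm_15_hz was at 6381 ± 435 against 1716 ± 168 in Col-0_1, and WRKY15 there at 2637 ± 69.1 against 795 ± 85.7. In wrky-qm, which is not labelled mutated in WRKY15, that gene was at 3129 ± 132. Its log2 difference in wrky-qm_15_hz from wrky-qm was -0.25 ± 0.067 (limma adjusted p = 0.00295). Levels above the wild type, as for WRKY7, WRKY11 and WRKY15, did not check those labels. OBE2 was still at 1811 ± 75.8 in obe1-2, compared with 3813 ± 111 in Col-0_1.

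In the wild type, transcripts of the family came mostly from 4 genes. Per kilobase of coding sequence, the mean level over both wild-type sets was 83773 normalised reads for GSTF9, 35732 for GSTU19, 31853 for GSTU20 and 23009 for GSTF10. The next were GSTF8 at 11392 and GSTU13 at 4706. All 41 genes together held between 0.318% and 0.33% of the normalised reads in the Col-0_1 libraries, 0.327% to 0.336% in Col-0_2, 0.347% to 0.357% for wrky-qm, 0.444% to 0.47% for wrky-qm_15_hz and 0.55% to 0.606% in obe1-2. In obe1-2 and wrky-qm_15_hz the shares of the classes went in opposite directions. The phi share was 0.495% in obe1-2 and 0.369% in wrky-qm_15_hz, compared with 0.181% for Col-0_1 and 0.203% for Col-0_2. The tau share was 0.0805% and 0.0839% in these mutants, compared with 0.144% for Col-0_1 and 0.128% for Col-0_2. The tau reads summed to means of 63960 in Col-0_1, 56873 in Col-0_2, 39520 in obe1-2 and 41739 in wrky-qm_15_hz. Of these, GSTU19 gave 24316, 22851, 16000 and 17604, and GSTU20 gave 22987, 18677, 3797 and 5979, in the same order. The fall thus lay in GSTU19 and GSTU20, and the summed reads of the other tau genes were not lower than in either wild-type set. GSTF6 and GSTF7 alone made up 35.1% of the family's reads in obe1-2 and 35.7% in wrky-qm_15_hz, compared with 2.23% in Col-0_1, 3.09% in Col-0_2 and 2.33% in wrky-qm.

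**Figure D1:**
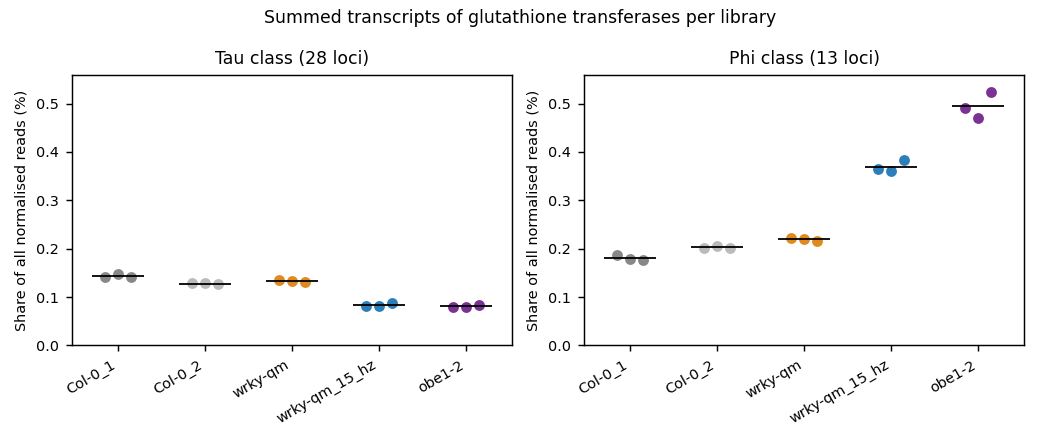
Share of all normalised reads (%, y axis) taken by the 28 tau loci (left) and the 13 phi loci (right) in each library, by group; points are libraries and lines are means of 3. The phi share is highest in obe1-2 and next in wrky-qm_15_hz, and the tau share is lowest in the same 2 groups.

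Marker genes of organs and of seed also differed between the groups. All 6 green shoot markers fell in obe1-2 and in wrky-qm_15_hz. Of 7 root markers, 1 rose and 5 fell in obe1-2 and 1 rose and 6 fell in wrky-qm_15_hz. In wrky-qm 0 root markers rose and 4 fell, and 1 green shoot marker rose. Of 8 seed markers, 8 rose in wrky-qm_15_hz, 7 rose in wrky-qm, and 2 rose and 1 fell in obe1-2. The summed level of green shoot markers was 704452 to 753019 normalised reads in obe1-2 and 1238190 to 1328770 in wrky-qm_15_hz, below 1781170 to 1964060 in the wild-type sets. The root markers summed to 155361 to 174161 in obe1-2, 120109 to 135567 in wrky-qm_15_hz, 52487 to 62295 in wrky-qm and 65511 to 93659.9 in the wild-type sets, most of it from the beta-glucosidase gene PYK10, while the root hair gene COBL9 stood at 3.6 ± 1.25 in obe1-2 and 115 ± 4.12 in wrky-qm against 341 ± 6.42 in Col-0_1. The seed markers summed to 37878 to 41026 in wrky-qm_15_hz and 9252 to 9602 in wrky-qm, but only 73.9 to 121 in obe1-2, 20.9 to 24.2 in Col-0_1 and 370.5 to 476 in Col-0_2. No root or green shoot marker was at 0 in any library, while 4 to 6 seed markers were at 0 in each Col-0_1 library, 3 or 4 in Col-0_2, 2 in obe1-2, 1 in wrky-qm and 0 in wrky-qm_15_hz. The part of these markers in the results was not tested, and in whole seedlings fewer cells of a type and less RNA per cell cannot be told apart.

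In obe1-2 and in wrky-qm_15_hz the family split into genes that rose strongly and genes that fell strongly. Of the 39 members with a mean of at least 1 in some group, 15 rose and 19 fell in obe1-2, where 29.2% of all genes tested rose and 32.5% fell. In wrky-qm_15_hz 16 rose and 18 fell, beside 26.5% and 27.4% of all genes. The rises in obe1-2 and wrky-qm_15_hz count GSTU3, which passed the minimum only through those groups. In wrky-qm 6 rose and 12 fell, beside 15.5% and 11.4% of all genes. The share of members that rose was 38.5%, 41% and 15.4% in the same order, and that of members that fell 48.7%, 46.2% and 30.8%. Changes of at least 2-fold were reached by 13 rising and 15 falling members in obe1-2, 13 and 12 in wrky-qm_15_hz, and 4 and 3 in wrky-qm. The share of all genes with called changes of that size was not counted, so these numbers have no baseline. The median size of the log2 fold change, regardless of sign and with members at 0 in some group included, was 2.07 in obe1-2, 1.79 in wrky-qm_15_hz and 0.52 in wrky-qm, against 0.69, 0.54 and 0.28 over all genes. The signed medians of the phi class were 1.02, 0.87 and 0.029 and those of the tau class -0.57, -0.58 and -0.31. The 3 comparisons share their wild-type libraries. In wrky-qm, 10 members were higher and 14 lower against Col-0_1 alone, and 9 higher and 15 lower against Col-0_2 alone. Of all 25085 genes tested, 5507 were higher and 4619 lower against Col-0_1 alone, and 5685 and 4864 against Col-0_2 alone. Against both sets these were 3886 and 2857, so the counts of all genes also grew when 1 set was used.

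**Figure D2:**
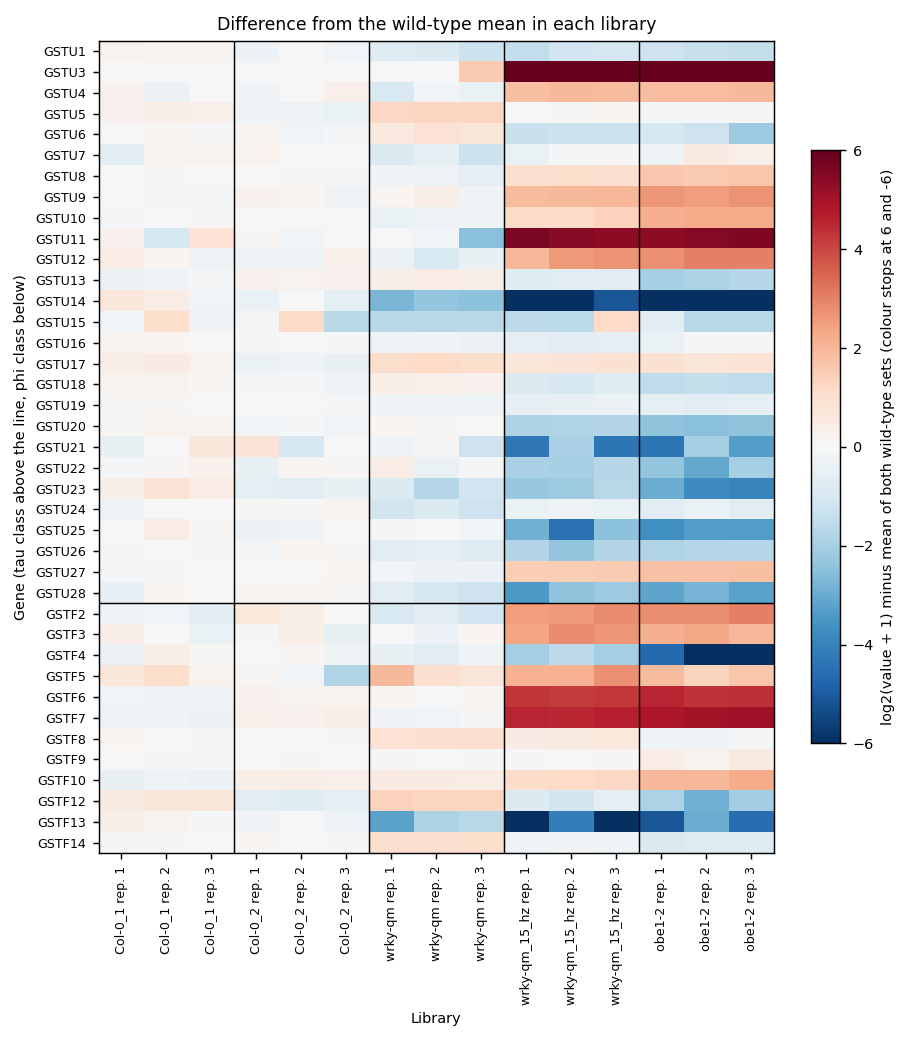
Each cell shows log2(value + 1) of 1 member (y axis) in 1 library (x axis) minus the averaged wild-type sets, red for higher and blue for lower, with colours stopped at 6 and -6. The 39 members that passed the filter are shown, 27 tau and 12 phi, and the libraries of wrky-qm_15_hz and obe1-2 share most of their red and blue rows.

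The phi genes GSTF6 and GSTF7 rose strongly in obe1-2 and wrky-qm_15_hz. GSTF6 conjugates glutathione to an indole intermediate in the synthesis of camalexin, the main phytoalexin of Arabidopsis, and GSTF7 is its close neighbour on chromosome 1. GSTF6 (AT1G02930) stood at 1947, 1821 and 1835 for Col-0_1, 2540.2, 2448 and 2455 for Col-0_2, 2308, 2107 and 2304 for wrky-qm, 42067, 38847 and 40574 for wrky-qm_15_hz and 51868, 43893 and 44992 for obe1-2. GSTF7 (AT1G02920) stood at 1338, 1403 and 1309 for Col-0_1, 2089, 2005 and 2101 for Col-0_2, 1448, 1484 and 1725 for wrky-qm, 39977, 38021 and 41737 for wrky-qm_15_hz and 47576, 52784 and 56067 for obe1-2. All 6 libraries of wrky-qm_15_hz and obe1-2 lay far above all others for both genes, while those of wrky-qm lay within the range of the wild-type libraries. The log2 fold changes were 4.44 ± 0.047 for GSTF6 and 4.96 ± 0.053 for GSTF7 in obe1-2 (limma adjusted p = 1.51e-23 and 2.32e-23). In wrky-qm_15_hz they were 4.23 ± 0.047 and 4.58 ± 0.053 (limma adjusted p = 7.33e-23 and 1.78e-22). Neither passed in wrky-qm, with values of 0.056 ± 0.047 and -0.11 ± 0.053. The coding sequences of this pair were 94.3% identical, but no stretch of 150 bases, the read length, was shared between their annotated transcripts or with any other annotated gene.

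The second close pair of the phi class, GSTF2 and GSTF3, rose with them from lower levels. GSTF2 is known to bind camalexin and related indoles. GSTF2 (AT4G02520) stood at 254, 260.1 and 191 for Col-0_1, 454, 376 and 288 for Col-0_2, 153, 186 and 130 for wrky-qm, 1692, 1742 and 2070.5 for wrky-qm_15_hz and 2017, 2035 and 2405 for obe1-2. GSTF3 (AT2G02930) stood at 30.6, 22.1 and 17.1 for Col-0_1, 24, 30.5 and 16.4 for Col-0_2, 22.4, 17.4 and 25.2 for wrky-qm, 122, 167 and 146 for wrky-qm_15_hz and 103, 118 and 94.4 for obe1-2. Neither gene's libraries of wrky-qm_15_hz or obe1-2 overlapped those of the other groups. GSTF2 had log2 fold changes of 2.87 ± 0.13 in obe1-2, 2.64 ± 0.13 in wrky-qm_15_hz and -0.91 ± 0.13 in wrky-qm (limma adjusted p = 3.28e-12, 2.97e-11 and 0.0056). GSTF3 rose by 2.15 ± 0.27 and 2.61 ± 0.27 in the former 2 mutants and did not pass in wrky-qm (-0.085 ± 0.27). Of the 150-base windows of the GSTF2 transcript, 39.3% lay within the annotated transcript of TOC159, a chloroplast import receptor gene on the opposite strand. The strandedness of the libraries is not stated, so reads of these genes may not have been told apart in the overlap. TOC159 itself was at means of 15744, 13527, 16477, 20997 and 14779 in Col-0_1, Col-0_2, wrky-qm, wrky-qm_15_hz and obe1-2.

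The array on chromosome 1 that holds GSTF7 and GSTF6 goes on with GSTF5 and GSTF4, at chr1:658578-666471 of TAIR10.1, the build of the reference annotation. GSTF4 (AT1G02950), the last gene of the array, stood at 61.4, 101 and 81.2 for Col-0_1, 79.9, 84.4 and 64.5 for Col-0_2, 55.9, 49.1 and 63.8 for wrky-qm, 18.2, 25.3 and 18 for wrky-qm_15_hz and 2.11, 0.0151 and 0.00995 for obe1-2. It fell in both obe1-2 and wrky-qm_15_hz (limma adjusted p = 6.99e-11 and 0.000612), in the opposite direction to GSTF6 and GSTF7. GSTF5 (AT1G02940) stood at 19, 25.2 and 13.5 for Col-0_1, 12, 10.2 and 2.61 for Col-0_2, 48.1, 24.6 and 20.1 for wrky-qm, 52.1, 52.5 and 81.8 for wrky-qm_15_hz and 46.1, 30.8 and 39.1 for obe1-2. Its log2 fold change of 2.296 ± 0.402 in wrky-qm_15_hz passed (limma adjusted p = 0.00449), and that of 1.64 ± 0.402 in obe1-2 did not (limma adjusted p = 0.0696). Both genes stayed at or below 101 normalised reads in every library.

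The promoters of GSTF7 and 4 tau genes that changed in obe1-2 and wrky-qm_15_hz are shown because genes mutated in wrky-qm_15_hz encode W-box binding factors. In obe1-2 no WRKY gene is labelled mutated. There WRKY7, WRKY11 and WRKY17 rose by 2.97 ± 0.049, 3.28 ± 0.054 and 2.39 ± 0.083. WRKY15 and WRKY21 rose by 2.01 ± 0.058 and 0.79 ± 0.065, and WRKY39 did not pass (-0.10 ± 0.055). Each run is the 250 bases before the annotated gene start in the RefSeq annotation of TAIR10.1, on the gene's strand from 5′ to 3′, with W-boxes (TTGACC or TTGACT, either strand) and TGACG (either strand) in capitals. GSTF7 comes first, then the tau genes GSTU11 and GSTU3, which were higher in obe1-2 and wrky-qm_15_hz, then GSTU20 and GSTU25, which fell there.
GSTF7 (chr1:659981-660230, minus strand): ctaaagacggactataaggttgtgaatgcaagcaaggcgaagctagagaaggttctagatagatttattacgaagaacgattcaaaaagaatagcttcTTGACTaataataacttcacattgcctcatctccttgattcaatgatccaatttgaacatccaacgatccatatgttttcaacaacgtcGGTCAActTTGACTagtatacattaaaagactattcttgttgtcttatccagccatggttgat
GSTU11 (chr1:26338819-26339068, minus strand): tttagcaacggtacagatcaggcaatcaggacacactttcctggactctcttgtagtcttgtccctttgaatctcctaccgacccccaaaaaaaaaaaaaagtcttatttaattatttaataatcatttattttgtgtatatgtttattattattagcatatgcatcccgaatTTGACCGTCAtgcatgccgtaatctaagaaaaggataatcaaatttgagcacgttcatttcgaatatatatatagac
GSTU3 (chr2:12629641-12629890, minus strand): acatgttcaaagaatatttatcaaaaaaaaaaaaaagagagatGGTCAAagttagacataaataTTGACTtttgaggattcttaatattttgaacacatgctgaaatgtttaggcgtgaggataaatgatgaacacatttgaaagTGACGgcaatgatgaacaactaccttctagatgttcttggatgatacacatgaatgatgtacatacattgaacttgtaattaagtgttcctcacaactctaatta
GSTU20 (chr1:29485390-29485639, minus strand): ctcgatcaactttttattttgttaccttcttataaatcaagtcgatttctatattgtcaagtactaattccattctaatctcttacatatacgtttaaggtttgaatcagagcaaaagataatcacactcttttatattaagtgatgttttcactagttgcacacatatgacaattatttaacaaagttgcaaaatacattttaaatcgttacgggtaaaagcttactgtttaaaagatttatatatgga
GSTU25 (chr1:5871774-5872023, plus strand): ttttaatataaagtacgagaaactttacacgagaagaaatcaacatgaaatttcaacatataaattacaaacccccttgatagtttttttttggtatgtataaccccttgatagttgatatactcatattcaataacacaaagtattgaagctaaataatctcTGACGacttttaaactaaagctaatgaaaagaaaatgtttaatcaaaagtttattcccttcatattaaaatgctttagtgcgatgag
GSTF7 held 3 W-boxes in this window, GSTU3 held 2, GSTU11 held 1, and GSTU20 and GSTU25 held 0. These 5 windows do not stand for the family. Among other members that rose in both mutants, GSTU8, GSTU27, GSTF2 and GSTU17 held 0, while GSTU19 and GSTU1, which fell, held 2 each. In GSTU11 the W-box and TGACG on the other strand share a base. Over the family, 21 of 41 windows (51.2%) held a W-box of either form, compared with 28.4% of 27443 windows of protein-coding genes. TGACG was in 14 of 41 (34.1%) against 18.6%, and the G-box CACGTG, also searched on both strands, was in 3 of 41 (7.32%) against 6.49%. A W-box was found in 10 of the 15 members that rose and 9 of the 19 that fell in obe1-2, in 10 of 16 and 8 of 18 in wrky-qm_15_hz, and in 3 of 6 and 6 of 12 in wrky-qm. The rises in obe1-2 and wrky-qm_15_hz again count GSTU3. Among tested members that were not called, a W-box was in 2 of 5, 3 of 5 and 12 of 21 in the same order. A match of letters is a description of these windows and does not show binding, and neighbours that arose by duplication can share sequence.

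The most abundant members changed less than GSTF6 and GSTF7 in fold, but not always in level. GSTF9 and GSTF10 are neighbours on chromosome 2 and are known for roles in glucosinolate synthesis and redox balance. GSTF9 (AT2G30860) stood at 55708, 52082 and 52067 for Col-0_1, 54508, 56517 and 54828 for Col-0_2, 56198, 54987 and 51843 for wrky-qm, 49819, 53219 and 56741 for wrky-qm_15_hz and 74315, 63455 and 77765 for obe1-2. GSTF10 (AT2G30870) stood at 10659.5, 11917 and 11343 for Col-0_1, 18488, 19102 and 17949 for Col-0_2, 20623, 20016 and 20000.1 for wrky-qm, 31417, 33241 and 33682 for wrky-qm_15_hz and 57521, 58278 and 66759 for obe1-2. GSTF9 was highest in obe1-2, with no overlap with other groups, whereas GSTF10 stepped up from wild type to wrky-qm_15_hz and again to obe1-2. The log2 fold change of GSTF9 was 0.400 ± 0.054 in obe1-2 (limma adjusted p = 2.06e-05), and it did not pass in wrky-qm_15_hz (-0.029 ± 0.054) or wrky-qm (0.0014 ± 0.054). GSTF10 rose by 2.07 ± 0.045 in obe1-2 and 1.18 ± 0.045 in wrky-qm_15_hz (limma adjusted p = 2.7e-17 and 1.46e-11). It was not called in wrky-qm (limma adjusted p = 0.0849), where its libraries were above all libraries of both wild-type sets but close to those of Col-0_2. GSTF8, a chloroplast-targeted enzyme whose promoter is a known marker of oxidative stress, rose in wrky-qm (0.95 ± 0.041) and wrky-qm_15_hz (0.55 ± 0.041) and fell slightly in obe1-2 (-0.195 ± 0.041), with the latter at limma adjusted p = 0.00552.

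**Figure D3:**
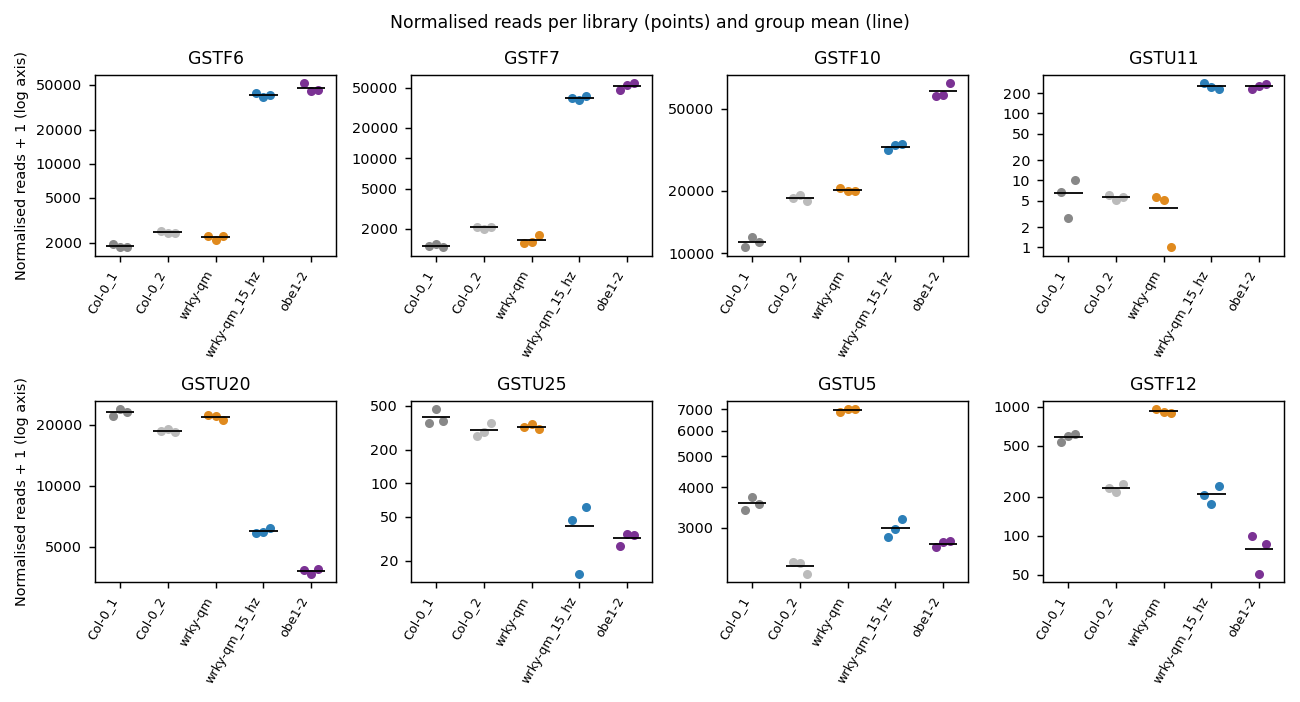
Normalised reads + 1 on a log axis (y) for 8 members, by group (x); points are the 3 libraries and lines the group means. GSTF6, GSTF7, GSTF10 and GSTU11 are high in wrky-qm_15_hz and obe1-2, GSTU20 and GSTU25 are low there, and GSTU5 and GSTF12 are highest in wrky-qm.

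Among tau genes, GSTU19 and GSTU20 were the most abundant in the wild type, and they lie side by side in an array of 5 genes on chromosome 1. GSTU19 encodes an enzyme induced by herbicide safeners, and GSTU20 is known to interact with the jasmonate-conjugating enzyme JAR1. GSTU20 (AT1G78370) stood at 22046, 23855 and 23060.1 for Col-0_1, 18664, 19045 and 18322 for Col-0_2, 22254, 21999 and 20991 for wrky-qm, 5807, 5922 and 6207 for wrky-qm_15_hz and 3839.8, 3671 and 3880.3 for obe1-2. GSTU19 (AT1G78380) stood at 24605, 24520 and 23822 for Col-0_1, 23000.2, 23135 and 22417 for Col-0_2, 20339, 19374 and 19162 for wrky-qm, 16961, 17265 and 18587 for wrky-qm_15_hz and 15929.7, 15448 and 16622 for obe1-2. GSTU20 was lower in every library of obe1-2 and wrky-qm_15_hz than in any other library, while wrky-qm lay within the wild-type range. Its log2 fold changes were -2.45 ± 0.035 in obe1-2 and -1.79 ± 0.035 in wrky-qm_15_hz (limma adjusted p = 2.42e-21 and 1.44e-18). GSTU19 fell less, with -0.56 ± 0.036 in obe1-2, -0.42 ± 0.036 in wrky-qm_15_hz and -0.26 ± 0.036 in wrky-qm (limma adjusted p = 4.12e-10, 8.93e-08 and 0.000262).

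The other 3 genes of this array also fell in obe1-2 and wrky-qm_15_hz, from low levels. GSTU22 (AT1G78340) stood at 204, 222 and 259.8 for Col-0_1, 157, 229.8 and 225 for Col-0_2, 290.4, 162 and 202 for wrky-qm, 54.1, 52.4 and 65.5 for wrky-qm_15_hz and 42, 24.5 and 53.7 for obe1-2. GSTU23 (AT1G78320) stood at 213, 287 and 222 for Col-0_1, 113, 105 and 122 for Col-0_2, 91.9, 50.2 and 74.4 for wrky-qm, 32.9, 36.8 and 51.9 for wrky-qm_15_hz and 20.2, 11 and 9.63 for obe1-2. GSTU21 (AT1G78360) stood at 14.1, 19.3 and 32.4 for Col-0_1, 34, 9.23 and 20.3 for Col-0_2, 16.8, 20.4 and 7.61 for wrky-qm, 0.0648, 4.28 and 0.04 for wrky-qm_15_hz and 0.0327, 4.25 and 1.08 for obe1-2. The libraries of obe1-2 and wrky-qm_15_hz lay below all wild-type libraries for each of them. Log2 fold changes in obe1-2 were -2.46 ± 0.23 for GSTU22 and -3.57 ± 0.26 for GSTU23, and in wrky-qm_15_hz -1.89 ± 0.23 and -2.02 ± 0.26 (largest limma adjusted p = 0.000277). GSTU21 was down to at most 4.28 normalised reads in both (limma adjusted p = 0.000458 and 0.000219). All 5 members of the array thus fell in both mutants, and only GSTU19 passed in wrky-qm.

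A second array on chromosome 1, GSTU24 to GSTU26, showed the same direction. GSTU24 and GSTU25 are known to detoxify the explosive trinitrotoluene. GSTU25 (AT1G17180) stood at 346, 467 and 363 for Col-0_1, 269, 292 and 346 for Col-0_2, 318, 342 and 306 for wrky-qm, 45.1, 14.2 and 60.4 for wrky-qm_15_hz and 26, 33.7 and 32.8 for obe1-2. GSTU26 (AT1G17190) stood at 769, 849 and 774 for Col-0_1, 787, 934 and 868 for Col-0_2, 532, 577 and 480.4 for wrky-qm, 247, 159.9 and 241 for wrky-qm_15_hz and 239.5, 249.6 and 255 for obe1-2. GSTU24 (AT1G17170) stood at 478, 580.4 and 585 for Col-0_1, 617, 610.3 and 645 for Col-0_2, 271, 323 and 248 for wrky-qm, 439.8, 475 and 445 for wrky-qm_15_hz and 379, 442 and 363 for obe1-2. For GSTU25 and GSTU26 the libraries of obe1-2 and wrky-qm_15_hz were the lowest, and for GSTU24 those of wrky-qm. GSTU25 fell, with log2 fold changes of -3.44 ± 0.29 in obe1-2 and -3.29 ± 0.29 in wrky-qm_15_hz (limma adjusted p = 1.74e-08 and 5.63e-08) and did not pass in wrky-qm (-0.087 ± 0.29). GSTU26 had log2 fold changes of -1.74 ± 0.11, -1.96 ± 0.11 and -0.65 ± 0.11 in obe1-2, wrky-qm_15_hz and wrky-qm. GSTU24 had -0.57 ± 0.097, -0.36 ± 0.097 and -1.06 ± 0.097, and the wrky-qm_15_hz value was at the edge of the threshold (limma adjusted p = 0.0498). The call of GSTU24 in wrky-qm_15_hz was lost without Col-0_1 replicate 2 or 3, Col-0_2 replicate 1, 2 or 3, or wrky-qm_15_hz replicate 1, 2 or 3, at -0.398 to -0.34.

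**Figure D4:**
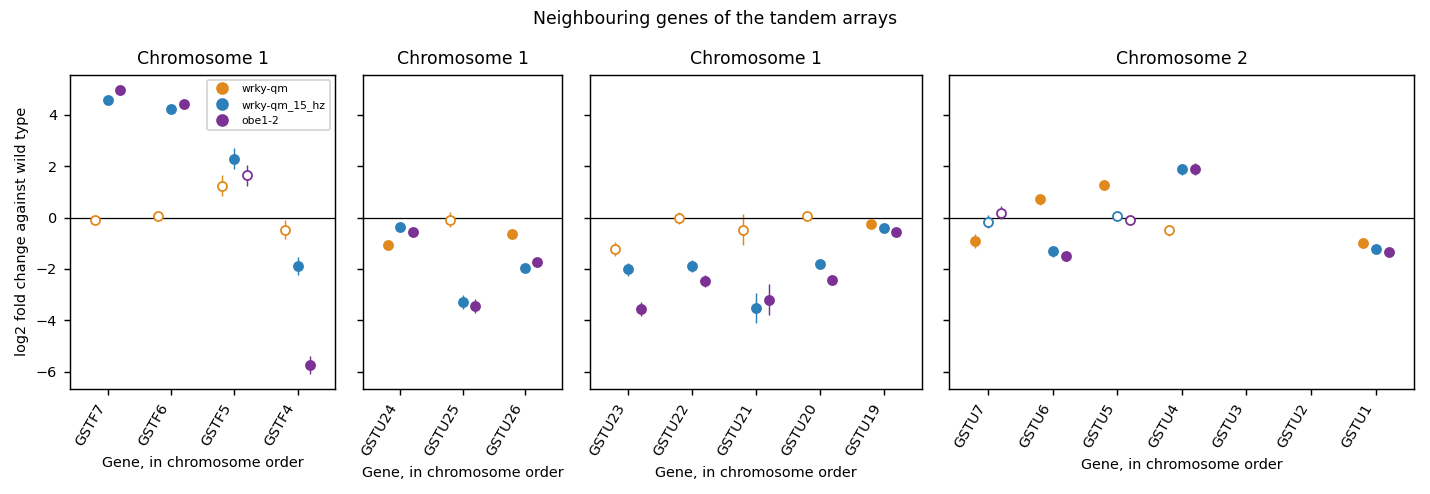
Log2 fold change relative to the averaged wild-type sets (y axis, ± SE) of the genes in the 4 arrays of 3 or more members, in chromosome order (x axis), for each mutant; filled points passed the test against both sets. Values against a group listed at 0 (GSTU3) and the untested GSTU2 are not drawn. Members of the GSTU19 to GSTU23 array lie below 0 in obe1-2 and wrky-qm_15_hz, whereas the GSTF4 to GSTF7 and GSTU1 to GSTU7 arrays hold both directions.

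The tau array of 7 genes on chromosome 2, GSTU1 to GSTU7 at chr2:12617936-12632538 of TAIR10.1, did not move as a block. GSTU3 (AT2G29470) stood at 0 throughout for Col-0_1, 0 throughout for Col-0_2, 0, 0.00335 and 1.95 for wrky-qm, 79.8, 71.1 and 67.1 for wrky-qm_15_hz and 62.1, 129.9 and 91.1 for obe1-2. GSTU4 (AT2G29460) stood at 56.3, 36.6 and 45.6 for Col-0_1, 40, 45.8 and 57.6 for Col-0_2, 24, 41.8 and 34.8 for wrky-qm, 163, 181 and 176 for wrky-qm_15_hz and 170.5, 172 and 182 for obe1-2. Both were higher in every library of obe1-2 and wrky-qm_15_hz than in any other library. GSTU3 was listed at 0 in both wild-type sets, so no fold is given. It passed the minimum mean of 1 only through obe1-2 and wrky-qm_15_hz, the groups in which it was high, so no p-value is given either. GSTU4 rose by 1.89 ± 0.22 and 1.88 ± 0.22 (limma adjusted p = 1.46e-06 and 2.33e-06).

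Their neighbours GSTU1 and GSTU6 went the other way in the same mutants. GSTU1 (AT2G29490) stood at 557, 530 and 542 for Col-0_1, 374, 467 and 427 for Col-0_2, 276, 263 and 196 for wrky-qm, 173, 214 and 231 for wrky-qm_15_hz and 204, 183 and 176 for obe1-2. GSTU6 (AT2G29440) stood at 151, 164 and 144 for Col-0_1, 171, 135 and 139 for Col-0_2, 223, 270.5 and 245 for wrky-qm, 58.8, 60 and 61.3 for wrky-qm_15_hz and 71.8, 63 and 32.2 for obe1-2. GSTU5 (AT2G29450), the most abundant gene of the array, stood at 3401, 3746 and 3559 for Col-0_1, 2352, 2327 and 2159.6 for Col-0_2, 6851, 6980.1 and 6998 for wrky-qm, 2810.2, 2966 and 3196 for wrky-qm_15_hz and 2612, 2704 and 2719.5 for obe1-2. GSTU1 was lower in all 9 mutant libraries than in any wild-type library, GSTU6 was lowest in obe1-2 and wrky-qm_15_hz and highest in wrky-qm, and GSTU5 was clearly higher in wrky-qm alone. GSTU1 fell, with log2 fold changes of -1.35 ± 0.13 in obe1-2, -1.22 ± 0.13 in wrky-qm_15_hz and -0.98 ± 0.13 in wrky-qm (limma adjusted p = 3.47e-07, 2.57e-06 and 0.000176). GSTU6 had -1.49 ± 0.21, -1.31 ± 0.21 and 0.71 ± 0.21 (limma adjusted p = 1.66e-05, 0.000109 and 0.0408), and 21.03% of its 150-base windows lay in AT2G29430 on the opposite strand, which was at 0 in every group mean. GSTU5 rose by 1.28 ± 0.044 in wrky-qm (limma adjusted p = 1.56e-12) and did not pass in obe1-2 or wrky-qm_15_hz, where its libraries lay between those of the wild-type sets. GSTU7 passed in wrky-qm alone, with -0.91 ± 0.26 (limma adjusted p = 0.0435). The call of GSTU6 in wrky-qm was lost without Col-0_1 replicate 1, 2 or 3, wrky-qm replicate 1, 2 or 3, or Col-0_2 replicate 2 or 3, left out 1 at a time, at 0.64 to 0.78. The call of GSTU7 in wrky-qm was lost without Col-0_1 replicate 2 or 3, wrky-qm replicate 1 or 3, or Col-0_2 replicate 1, 2 or 3, at -0.95 to -0.72.

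Tau genes outside these arrays gave most of the rises of the class. GSTU11 and GSTU12 are neighbours on chromosome 1. GSTU11 (AT1G69930) stood at 5.7, 1.72 and 9.29 for Col-0_1, 4.99, 4.07 and 4.62 for Col-0_2, 4.72, 4.07 and 0 for wrky-qm, 285, 248 and 230.3 for wrky-qm_15_hz and 230, 252 and 276 for obe1-2. GSTU12 (AT1G69920) stood at 51.5, 41.6 and 30.6 for Col-0_1, 31, 31.6 and 46.6 for Col-0_2, 30, 19.5 and 28 for wrky-qm, 156, 231 and 251 for wrky-qm_15_hz and 263, 312 and 311 for obe1-2. GSTU11 went from under 10 in every wild-type library to over 200 in every library of obe1-2 and wrky-qm_15_hz. Its log2 fold changes were 5.49 ± 0.47 and 5.496 ± 0.47, and those of GSTU12 2.92 ± 0.24 and 2.43 ± 0.24 (largest limma adjusted p among these 4 = 2.53e-07). Neither passed in wrky-qm.

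GSTU27, GSTU8, GSTU9 and GSTU10 lie alone. GSTU27 (AT3G43800) stood at 1745, 1725 and 1817 for Col-0_1, 1864, 1835 and 1951 for Col-0_2, 1606, 1423 and 1412 for wrky-qm, 5109, 5107 and 5334 for wrky-qm_15_hz and 6175, 6102 and 6368 for obe1-2. GSTU8 (AT3G09270) stood at 856, 924 and 870.1 for Col-0_1, 877, 833 and 914 for Col-0_2, 752, 702 and 607 for wrky-qm, 1685, 1817 and 1732 for wrky-qm_15_hz and 2736, 2574 and 2791 for obe1-2. Each was highest in obe1-2, next in wrky-qm_15_hz and lowest in wrky-qm, with no overlap between those groups. GSTU9 (AT5G62480) stood at 234, 218 and 213 for Col-0_1, 268, 243 and 196 for Col-0_2, 247, 292 and 197 for wrky-qm, 843, 868 and 896 for wrky-qm_15_hz and 1426, 1289 and 1465 for obe1-2. GSTU10 (AT1G74590) stood at 259, 279 and 284 for Col-0_1, 283, 269 and 271 for Col-0_2, 211, 224 and 229.8 for wrky-qm, 615, 594 and 717 for wrky-qm_15_hz and 1252, 1267 and 1294 for obe1-2. The same order of obe1-2 above wrky-qm_15_hz held for both, but GSTU9 in wrky-qm overlapped the wild type. Log2 fold changes in obe1-2 were 1.77 ± 0.043 for GSTU27, 1.62 ± 0.061 for GSTU8, 2.61 ± 0.11 for GSTU9 and 2.21 ± 0.081 for GSTU10. In wrky-qm_15_hz they were 1.51 ± 0.043, 0.99 ± 0.061, 1.93 ± 0.11 and 1.22 ± 0.081 (largest limma adjusted p among these 8 = 3.34e-10). In wrky-qm GSTU27, GSTU8 and GSTU10 fell, with -0.301 ± 0.043, -0.36 ± 0.061 and -0.31 ± 0.081 (limma adjusted p = 0.000414, 0.000492 and 0.017), the opposite direction to that in the other mutants. The call of GSTU10 in wrky-qm was lost without Col-0_1 replicate 3, wrky-qm replicate 1 or Col-0_2 replicate 1, at -0.296 to -0.27.

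Falls outside the longer arrays included GSTU13, whose product acts in indole glucosinolate defence against fungi, and its neighbour GSTU14. GSTU13 (AT1G27130) stood at 2452, 2702 and 2938 for Col-0_1, 3779, 3612 and 3830.5 for Col-0_2, 4033, 4275 and 3992 for wrky-qm, 1915, 2007 and 2066 for wrky-qm_15_hz and 789.7, 852 and 955 for obe1-2. GSTU14 (AT1G27140) stood at 178, 149.8 and 100.1 for Col-0_1, 83.9, 111 and 75.5 for Col-0_2, 15.7, 21.4 and 19.3 for wrky-qm, 0.0326, 0.0193 and 2.16 for wrky-qm_15_hz and 0 throughout for obe1-2. GSTU13 was lowest in obe1-2 and next in wrky-qm_15_hz, while wrky-qm was the highest. Its log2 fold changes were -1.88 ± 0.058 and -0.67 ± 0.058 (limma adjusted p = 3.39e-15 and 9.79e-06). GSTU14 was listed at 0 in obe1-2, nearly absent in wrky-qm_15_hz, and fell in wrky-qm with -2.51 ± 0.397 (limma adjusted p in that order = 4.69e-11, 3.81e-10 and 0.000772).

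GSTU28, GSTU18 and the phi gene GSTF13 were also low in obe1-2 and wrky-qm_15_hz. GSTU28 (AT1G53680) stood at 96.4, 144 and 132 for Col-0_1, 153, 149.5 and 139.5 for Col-0_2, 85.3, 65.4 and 55.8 for wrky-qm, 11.5, 24.3 and 28.7 for wrky-qm_15_hz and 14.1, 18.4 and 13.8 for obe1-2. GSTU18 (AT1G10360) stood at 1984, 2046 and 1911 for Col-0_1, 1616, 1594 and 1387 for Col-0_2, 2283, 2143 and 2084 for wrky-qm, 961, 885 and 1058 for wrky-qm_15_hz and 598, 653 and 607 for obe1-2. GSTF13 (AT3G62760) stood at 95.2, 86.9 and 70.7 for Col-0_1, 64.9, 74.2 and 61.8 for Col-0_2, 7.19, 19.4 and 23.3 for wrky-qm, 0.0487, 3.22 and 0.0301 for wrky-qm_15_hz and 1.16, 8.51 and 2.16 for obe1-2. In each case the libraries of these mutants lay below all wild-type libraries. In obe1-2 and wrky-qm_15_hz, GSTU28 had log2 fold changes of -3.05 ± 0.28 and -2.68 ± 0.28 and GSTU18 of -1.49 ± 0.061 and -0.85 ± 0.061 (largest limma adjusted p among these 4 = 6.4e-07). GSTF13 fell in all 3 mutants, with -4.23 ± 0.51 in obe1-2 and -2.25 ± 0.51 in wrky-qm (limma adjusted p = 3.2e-06 and 0.01), and was at most 3.22 normalised reads in a library of wrky-qm_15_hz (limma adjusted p = 9.8e-08). The call of GSTF13 in wrky-qm was lost without wrky-qm replicate 1, at -1.77.

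The 6 members that rose in wrky-qm were GSTU5, GSTU6 and GSTF8, described above, and GSTU17, GSTF12 and GSTF14. GSTF12, also known as TT19, carries anthocyanin precursors toward the vacuole. GSTF12 (AT5G17220) stood at 535, 595 and 614 for Col-0_1, 232, 218 and 253 for Col-0_2, 958, 905 and 897 for wrky-qm, 207, 174 and 242 for wrky-qm_15_hz and 98.7, 49.8 and 85.6 for obe1-2. GSTF14 (AT1G49860) stood at 2049, 2063 and 2115 for Col-0_1, 2298, 2088 and 2268 for Col-0_2, 4357, 4178 and 4392 for wrky-qm, 1776, 1834 and 1808 for wrky-qm_15_hz and 1158, 1254 and 1235 for obe1-2. GSTU17 (AT1G10370), known as the early dehydration gene ERD9 and as a negative factor in drought tolerance, stood at 969.8, 1035 and 851 for Col-0_1, 549, 617 and 541 for Col-0_2, 1525, 1670.3 and 1512 for wrky-qm, 1233, 1237 and 1365 for wrky-qm_15_hz and 1381, 1201 and 1316 for obe1-2. GSTF12 and GSTF14 were highest in wrky-qm and lowest in obe1-2, while GSTU17 was above the wild type in all 3 mutants. GSTF12 rose by 1.32 ± 0.16 in wrky-qm and fell in obe1-2, at -2.28 ± 0.16 (limma adjusted p = 0.00835 and 8.22e-08), and in wrky-qm_15_hz it did not pass (limma adjusted p = 0.471). GSTF14 had 1.01 ± 0.042 in wrky-qm, but -0.25 ± 0.042 and -0.82 ± 0.042 in wrky-qm_15_hz and obe1-2 (limma adjusted p = 9.19e-13, 0.00133 and 6.52e-12). GSTU17 had 1.09 ± 0.069, 0.797 ± 0.069 and 0.82 ± 0.069 (limma adjusted p = 2.25e-07, 8.75e-05 and 3.57e-05). GSTU17 overlaps GSTU18 by 71 bases on the same strand, although the 2 genes moved in opposite directions in obe1-2 and wrky-qm_15_hz.

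**Figure D5:**
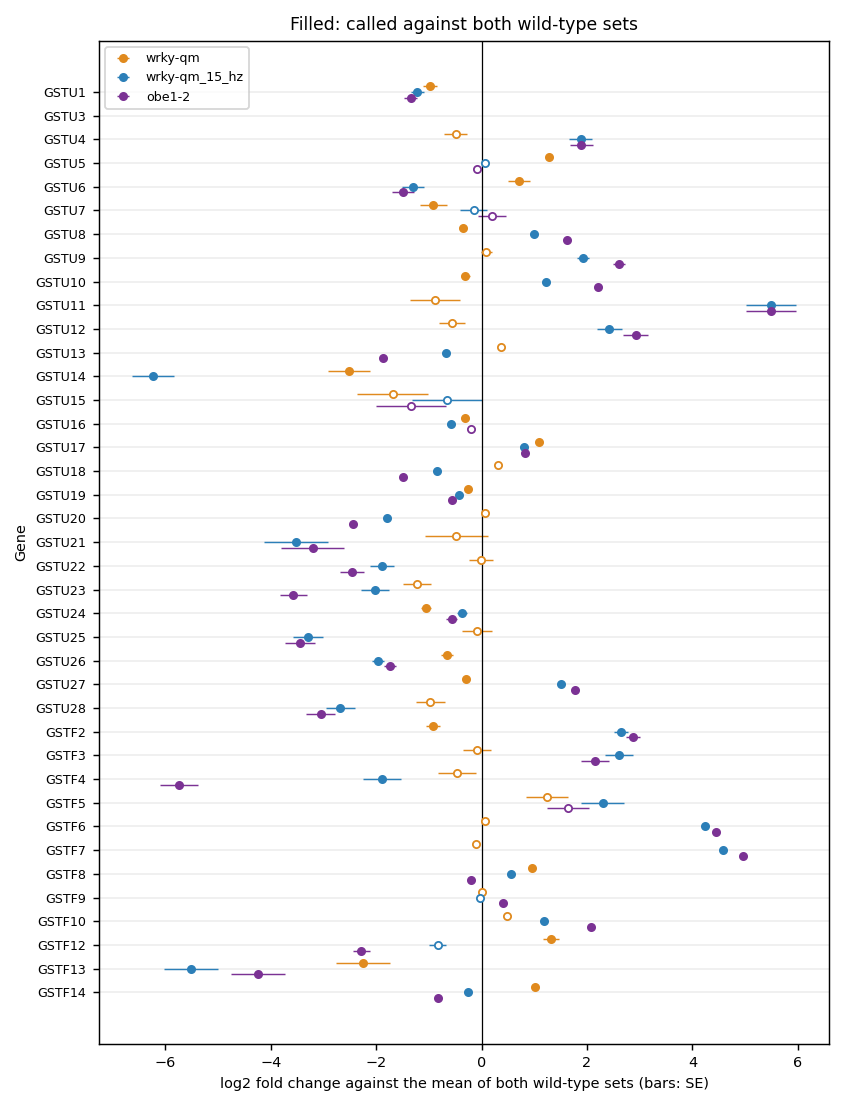
Log2 fold change (x axis, ± SE) of each tested member (y axis) relative to the averaged wild-type sets, with a point for each mutant; filled points passed the test against both sets. GSTU3 and the obe1-2 value of GSTU14 are not drawn because 1 or more groups were listed at 0. Points of wrky-qm mostly lie between -1 and 1.32, while those of wrky-qm_15_hz and obe1-2 reach past 4 and below -5.

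The added heterozygous WRKY15 mutation was the labelled difference between wrky-qm_15_hz and wrky-qm. The log2 differences between these groups do not use wild-type values, but their SE and p-values come from the fit to all 15 libraries. Of 39 members, 15 were higher and 20 lower in wrky-qm_15_hz, where 29.5% of all genes were higher and 34.9% lower. The higher members count GSTU3, which passed the minimum only through wrky-qm_15_hz and obe1-2. GSTU11 (6.37 ± 0.55), GSTF7 (4.69 ± 0.062), GSTF6 (4.18 ± 0.055) and GSTF2 (3.56 ± 0.15) were higher. GSTU25 (-3.202 ± 0.33), GSTF12 (-2.15 ± 0.18), GSTU6 (-2.01 ± 0.24) and GSTU20 (-1.86 ± 0.041) were lower (largest limma adjusted p among these 8 = 2.71e-07). The 2 groups also differ in seed, green shoot and root marker levels. In wrky-qm_15_hz 8 of 8 seed markers were higher than in wrky-qm. Of 6 green shoot markers 0 were higher and 5 lower, and of 7 root markers 1 was higher and 5 lower. The part of these markers in the differences was not tested. Between obe1-2 and wrky-qm, 16 members, again counting GSTU3, were higher and 20 lower in obe1-2, beside 31.1% and 38.9% of all genes.

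The libraries of obe1-2 and wrky-qm_15_hz were compared with each other directly. There 9 members were higher and 10 lower in obe1-2, beside 20.3% and 26.1% of all genes, and the median size of the log2 difference was 0.43 against 0.31 over all genes. GSTF10 (0.89 ± 0.052), GSTU10 (0.99 ± 0.094), GSTU9 (0.68 ± 0.13) and GSTU8 (0.63 ± 0.071) were among those higher in obe1-2 (largest limma adjusted p among these 4 = 0.000165). GSTU23 (-1.55 ± 0.31), GSTF12 (-1.45 ± 0.18), GSTU13 (-1.21 ± 0.066) and GSTF8 (-0.75 ± 0.047) were lower (largest limma adjusted p among these 4 = 0.00026), as was GSTF4 (limma adjusted p = 1.19e-07). GSTF6 and GSTF7 differed little but past the threshold, by 0.21 ± 0.055 and 0.38 ± 0.062 (limma adjusted p = 0.00328 and 2.66e-05). In a fit on the compared groups alone the GSTF6 difference did not pass (limma adjusted p = 0.0915). For GSTU11, GSTU4 and GSTU25 no difference passed. The 95% intervals of their log2 differences were -1.15 to 1.13, -0.52 to 0.55 and -0.84 to 0.54.

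The wild-type sets themselves differed in 11 members, 5 higher and 6 lower in Col-0_2, beside 13.7% and 9.52% of all genes. The higher members were GSTF10 (0.71 ± 0.052), GSTF2 (0.65 ± 0.15), GSTF7 (0.61 ± 0.062), GSTU13 (0.47 ± 0.066) and GSTF6 (0.41 ± 0.055). The lower members were GSTF12 (-1.31 ± 0.18), GSTU23 (-1.07 ± 0.31), GSTU17 (-0.74 ± 0.079), GSTU5 (-0.65 ± 0.050), GSTU18 (-0.37 ± 0.071) and GSTU20 (-0.299 ± 0.041) (largest limma adjusted p among these 11 = 0.0132). The call of GSTF2 was lost in a fit on the compared groups alone (limma adjusted p = 0.0997) and that of GSTU23 without Col-0_1 replicate 2 (limma adjusted p = 0.0699). For GSTF6 and GSTF7 these differences are small beside the rises in obe1-2 and wrky-qm_15_hz, but the difference of GSTF12 is about as large as its rise in wrky-qm. The labels do not say in what the 2 sets differ.

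Members with little or no signal are named for completeness. GSTF11 (AT3G03190), which acts in aliphatic glucosinolate synthesis, was listed at 0 in all 15 libraries. Of its 150-base windows, 74.9% lie within the annotated transcript of NAC045 on the opposite strand, which stood at means of 56.3, 64.0, 49.2 and 18.3 in Col-0_1, Col-0_2, wrky-qm and wrky-qm_15_hz and at 0 in obe1-2. GSTU2 (AT2G29480) did not reach the minimum mean of 1 in any group and shares 46.3% of its windows with AT2G29485 on the opposite strand, which was at 0 in all group means. The part of these overlaps in the low values was not tested. GSTU15 (AT1G59670) stayed under 7 in every library and did not pass in any mutant, although its neighbour GSTU16, at 84.3% coding identity, had a mean of 959 in Col-0_1. GSTU16 fell, with -0.58 ± 0.071 in wrky-qm_15_hz and -0.31 ± 0.071 in wrky-qm (limma adjusted p = 2.58e-05 and 0.0476) and did not pass in obe1-2 (-0.200 ± 0.071). The call of GSTU16 in wrky-qm was lost without Col-0_1 replicate 1 or 2, wrky-qm replicate 1, 2 or 3, or Col-0_2 replicate 1, 2 or 3, at -0.33 to -0.29.

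Glutathione synthesis genes rose in obe1-2 and wrky-qm_15_hz. Of 25 other genes of glutathione synthesis, recycling and the remaining transferase classes, 16 rose and 4 fell in obe1-2, 14 rose and 4 fell in wrky-qm_15_hz, and 6 rose and 3 fell in wrky-qm, with median log2 fold changes of 0.56, 0.48 and 0.041 against -0.079, -0.038 and 0 over all genes. These are 64% and 16% of the list in obe1-2, 56% and 16% in wrky-qm_15_hz and 24% and 12% in wrky-qm, beside 29.2% and 32.5%, 26.5% and 27.4%, and 15.5% and 11.4% of all genes. GSH1, the first and rate-limiting enzyme of glutathione synthesis, stood at 34617 ± 1297 in obe1-2 and 37017 ± 511 in wrky-qm_15_hz, against 12228 ± 176, 15248 ± 374 and 12104 ± 495 in Col-0_1, Col-0_2 and wrky-qm (SD, n = 3). GSH2, the second enzyme, rose by 1.34 ± 0.043 in obe1-2 and 0.96 ± 0.043 in wrky-qm_15_hz (limma adjusted p = 1.25e-14 and 2.75e-11). GSH1 and GSH2 did not pass in wrky-qm, with -0.17 ± 0.034 and -0.13 ± 0.043. The conjugate transporter gene ABCC3 rose in all 3 mutants, by 1.92 ± 0.056, 2.08 ± 0.056 and 1.23 ± 0.056 in obe1-2, wrky-qm_15_hz and wrky-qm, while the transporter gene ABCC1 passed in none (largest size 0.098 ± 0.043, in wrky-qm). The phytochelatin synthase gene PCS1 also rose in all 3, by 1.44 ± 0.050, 1.15 ± 0.050 and 1.12 ± 0.050 (largest limma adjusted p of ABCC3 and PCS1 = 1.95e-11). The lambda-class transferase gene GSTL1 rose by 2.46 ± 0.15 and 2.002 ± 0.15 in obe1-2 and wrky-qm_15_hz.

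In a list of 12 genes, made of TGA factors, their partner SCL14 and detoxification genes, the test counted 8 up and 1 down in obe1-2, 6 and 1 in wrky-qm_15_hz, and 3 and 2 in wrky-qm. As shares of the list these are 66.7% and 8.33%, 50% and 8.33%, and 25% and 16.7%, to be read against the same shares of all genes as above. TGA2 and TGA6, which regulate detoxification genes, did not pass in any mutant, and TGA3 rose by 1.29 ± 0.046 in obe1-2 and 0.58 ± 0.046 in wrky-qm_15_hz (limma adjusted p = 3.67e-14 and 3.54e-07). CYP81D8, a xenobiotic-induced monooxygenase gene, rose in all 3 mutants (2.78 ± 0.1001, 2.67 ± 0.1001 and 1.48 ± 0.1001). CYP81D11, from the same family, fell, with -4.93 ± 0.42 in obe1-2 and -2.12 ± 0.42 in wrky-qm_15_hz (limma adjusted p = 2.45e-08 and 0.00293), and did not pass in wrky-qm (1.18 ± 0.42, limma adjusted p = 0.232).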

How the data were processed

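Per the labels, seedlings were grown on Murashige and Skoog plates at 22 °C in days of 16 h light and nights of 8 h, and RNA was extracted with TRIzol and sequenced as 150-bp paired-end reads on a NovaSeq 6000. The submitters' processing notes name bcl2fastq, HISAT2, edgeR and the build TAIR10, with no roles or versions. Counting, annotation and strandedness are not given in the sources used here. Each gene has a single deposited value in each library, classed as signal since its unit is not stated. From the values, these have the form of counts that the authors moved to a common library size, so no count test was run. The table has no depth or counts of its own, and no counting interval is given.

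Values under 1e-06 were taken as 0. The test took 25085 of 32548 genes, those whose mean reached 1 in some group. A limma-trend model (limma 3.58.1, R 4.3.3) was fitted to log2(value + 1) of all 15 libraries in 5 groups. The labels tie no wild-type set to a mutant, so each mutant was compared with both, the larger p-value was kept (1 where directions differed) and adjusted by the Benjamini-Hochberg method over all genes tested, with a threshold of 0.05. Groups were also compared directly. The scripts were tested on simulated data. Members and lists were chosen with earlier results of these data known. Every member is accounted for, and those changed at least 2-fold in some mutant (33 genes), or among the 3 highest per coding length in the wild type, are given by library. RefSeq symbols were identical for 39 of 41 loci, the others being listed as ERD9 (GSTU17) and ATGSTF13. Gene structures, coding identity (Biopython 1.88) and promoters were read from the RefSeq annotation and genome of TAIR10.1. The deposited table has no coordinates, and loci were joined by name.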

Additional observations from a re-analysis of the deposited data

How the results depend on the processing

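The number of members higher or lower in each comparison stayed within 1.5 times of the value reported under other pseudocounts (0.5 and 5), no minimum or a minimum mean of 10, quantile normalisation, median-of-ratios size factors, and fits on the compared groups alone. The exception was the wild-type set, since 10 members were higher in wrky-qm relative to Col-0_1 alone and 10 relative to the averaged sets, in place of 6. The number of all genes higher in wrky-qm also grew in those fits, to 5507 and 5931 in place of 3886. Leaving out 1 library at a time gave 15 to 16 members higher and 19 to 19 lower in obe1-2, 16 to 16 and 17 to 18 in wrky-qm_15_hz, and 5 to 6 and 9 to 12 in wrky-qm, against the wild type. It gave 14 to 15 higher and 19 to 20 lower in wrky-qm_15_hz than in wrky-qm, 16 to 17 and 19 to 20 in obe1-2 than in wrky-qm, 9 to 10 and 8 to 11 in obe1-2 than in wrky-qm_15_hz, and 5 to 5 and 5 to 7 in Col-0_2 than in Col-0_1. Of 187 calls of a member in a comparison, 170 kept direction and call under all settings run. Directions that turned were GSTU1 between obe1-2 and wrky-qm under quantile normalisation (0.11, adjusted p = 0.526 by limma), GSTF7 (0.198) and GSTF6 (-0.15) in wrky-qm against Col-0_1 or Col-0_2 alone, and GSTU5, at -0.26 in wrky-qm_15_hz against Col-0_1 alone and 0.23 in obe1-2 against Col-0_2 alone. The cause was not tested. Calls against the wild type that were lost under 1 or more settings were GSTU6, GSTU7, GSTU10, GSTU16, GSTF2 and GSTF13 in wrky-qm and GSTU24 in wrky-qm_15_hz. In the direct comparisons they were GSTF2 and GSTU23 between the wild-type sets, GSTU7 and GSTU23 between wrky-qm_15_hz and wrky-qm, GSTU1, GSTU21 and GSTF13 between obe1-2 and wrky-qm, and GSTU5, GSTU19 and GSTF6 between obe1-2 and wrky-qm_15_hz. Calls gained against both wild-type sets were GSTU28 in wrky-qm, GSTF5 and GSTU7 in obe1-2 and GSTF9 in wrky-qm_15_hz. GSTF9 (-0.29) and GSTU7 (0.94) passed under quantile normalisation only. Between the wild-type sets GSTU1, GSTU19, GSTF5 and GSTF9 were gained. Between wrky-qm_15_hz and wrky-qm these were GSTU1, GSTF5 and GSTF9, and between obe1-2 and wrky-qm GSTU16 and GSTF5. Between obe1-2 and wrky-qm_15_hz they were GSTU7, GSTU22, GSTU25, GSTU26, GSTU28 and GSTF13. Samples with the same replicate number did not deviate together (30 pairs, correlations of -0.048 to 0.038), so the main fit did not pair them. This check cannot tell whether samples with the same number were grown or handled together. With the replicate block, 15 members were higher and 19 lower in obe1-2, 16 and 18 in wrky-qm_15_hz and 6 and 11 in wrky-qm. Quantile normalisation moved the median of all genes between obe1-2 and wrky-qm from -0.115 to 0.025.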
